A study of Mus musculus with 4 samples.

Results

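Genes of fatty acid synthesis and desaturation were examined in single cells from mouse lung tumors, and comprised Acly, Acaca, Fasn, Elovl1, Scd1, Scd2, Fads1, Fads2, Srebf1 and Insig1. The set was chosen by gene symbol, and all 10 genes were found among the 31055 features counted. Total viable cells had been sorted from dissociated lung tumors of 4 female mice, 16 weeks after Lenti-Cre was delivered to the airways, and sequenced from the 3′ end of polyadenylated RNA. Mice of both groups carried Lkb1XTR/XTR, to which the 2 Restored mice added Rosa26LSL-tdTomato/FLPo-ERT2 and the 2 Non-Restored mice Rosa26LSL-tdTomato, and the labels give no ages. All of the mice are labelled as treated with tamoxifen, in 4 mg doses over the last 2 weeks. Cre switches on tdTomato and inverts a gene trap into Lkb1, a tumor suppressor kinase gene, so that the tumors of both groups grew without Lkb1. FLPo-ERT2, a recombinase that tamoxifen activates throughout the body, removes the trap, and thus only Restored mice regained Lkb1. The sort kept every viable cell, so neoplastic and normal cells of the tumors are mixed.

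Fatty acids are built in the cytosol from acetyl-CoA, which ATP citrate lyase (Acly) makes from citrate, acetyl-CoA carboxylase (Acaca) turns into malonyl-CoA, and fatty acid synthase (Fasn) assembles into palmitate. Elongases lengthen the chain and desaturases place double bonds in it, while the transcription factor SREBP1 (Srebf1) drives most of these genes and INSIG1 holds its precursor in the endoplasmic reticulum when sterols are plentiful. Alveolar type II (ATII) cells make and secrete surfactant, a lipid film rich in saturated phosphatidylcholine, and need a steady supply of fatty acids. Alveolar type I (ATI) cells are thin cells of gas exchange, and alveolar macrophages take up and break down surfactant.

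A single matrix pooled the 4 mice, with 20351 cells, 58624795 unique molecular identifiers (UMIs, each 1 captured RNA molecule) and no map from cells to mice in the files used here. Restored and Non-Restored mice were therefore not compared, the matrix counts as 1 sample without replicates, and no test between mice or p-value is given. Any difference between cell types can include unequal shares of the 4 mice in them. Cells were gated by marker genes that include none of the 10 genes, and 14665 of 19486 cells kept entered a gate. The gates used most were 497 ATII-like, 173 ATI-like and 134 Hopx-positive ATII cells, 1735 alveolar and 1689 interstitial macrophages, with a median of 4480, 2342, 4225, 5467 and 4073 UMIs per cell. ATII-like cells held 118367 CPM (UMIs of a gene per 1000000 UMIs of its gate) of surfactant protein C (Sftpc) and ATI-like cells held 14575 CPM, alongside 3521 CPM of the ATI marker Ager. Marco, an alveolar macrophage receptor, had 0 UMIs in ATII-like and in ATI-like cells and 335 CPM in alveolar macrophages, and C1qa reached 4364 CPM in interstitial macrophages. TdTomato was found in 99.4% of ATII-like and 97.7% of ATI-like cells, and also in 95.4% of alveolar macrophages. The 8 alveolar macrophage markers summed to 712 CPM in ATI-like cells, whose part in the results below was not tested. Each range after a value is an exact 95% interval that covers counting error only.

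Promoter sequence for 7 of the 10 genes was available from RefSeq (GRCm38.p6), in 10 windows that reach from 250 bases before to 50 bases after a transcript start. Scd1, Scd2 and Fads1 were missing there. The 250 bases before the start are shown for Fasn, the enzyme that assembles the chain, Elovl1, an elongase, and Insig1, the sterol sensor, whose levels in ATII-like cells and alveolar macrophages were closest among the genes tested. They lie at chr11:120824548-120824797 (minus strand), chr4:118427843-118428092 (plus strand) and chr5:28071162-28071411 (plus strand), and capitals mark CCAAT, the NF-Y motif, on either strand and CACGTG, an E-box.
Fasn: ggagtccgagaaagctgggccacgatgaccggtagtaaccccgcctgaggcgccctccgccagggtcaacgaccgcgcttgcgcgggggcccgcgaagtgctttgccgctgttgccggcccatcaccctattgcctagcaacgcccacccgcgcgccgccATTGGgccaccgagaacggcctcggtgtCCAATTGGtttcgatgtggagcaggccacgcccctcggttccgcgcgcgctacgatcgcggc
Elovl1: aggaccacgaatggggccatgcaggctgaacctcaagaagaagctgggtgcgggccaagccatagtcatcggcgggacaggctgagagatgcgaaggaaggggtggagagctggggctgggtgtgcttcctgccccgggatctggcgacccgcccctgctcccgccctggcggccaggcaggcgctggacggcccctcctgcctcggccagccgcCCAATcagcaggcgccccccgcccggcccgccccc
Insig1: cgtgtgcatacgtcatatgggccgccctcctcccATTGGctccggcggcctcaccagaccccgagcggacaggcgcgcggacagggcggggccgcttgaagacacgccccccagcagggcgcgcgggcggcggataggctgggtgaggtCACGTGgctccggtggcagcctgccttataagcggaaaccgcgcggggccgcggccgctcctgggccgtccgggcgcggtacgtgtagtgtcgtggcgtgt
CCAAT was found on either strand in 6 of the 10 windows, from 5 of the 7 genes, against 37.4% of all 32851 promoter windows of the same length. In Fasn it began at -90, -62 and -59, the last 2 overlapping on opposite strands, in Elovl1 at -35 and in Insig1 at -216, where 0 is the first transcribed base. CACGTG was found in 1 window, that of Insig1, at -101, and in 7.15% of all windows. Neither the sterol regulatory motif TCACNCCAC (1.24% of all windows) nor the C/EBP motif TTGCNNAA (10.8%) had a match in the 10 windows on either strand. These are matches of letters, and no binding was measured here.

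The genes lie on 4 chromosomes of mm10. Fasn (chr11:120805846-120824547), Acly (chr11:100476353-100528000), Acaca (chr11:84129672-84401651) and Srebf1 (chr11:60199089-60222581) share chromosome 11. Scd1 (chr19:44394455-44407879) and Scd2 (chr19:44293674-44306864) stand 87590 bases apart on opposite strands of chromosome 19, as do Fads1 (chr19:10182888-10196877) and Fads2 (chr19:10062765-10101746), 81141 bases apart. Elovl1 is at chr4:118428093-118432953 and Insig1 at chr5:28071363-28078662. The last 53 bases of Elovl1 overlap Cdc20 and the last 109 bases of Srebf1 overlap Rai1, each on the other strand. Sources used here do not state how the counting treated strand, so counts from those ends cannot be told apart. Scd1 shares 57 of its 4888 stretches of 91 bases, the read length, with Scd2 (1.17%). All 57 are among the 1059 stretches within the last 500 bases of a Scd1 transcript, near the end that was sequenced. Scd1 shares 95 with its relative Scd3 (1.94%), 63 of them among those 1059. How reads from these stretches were counted was not examined. Fads1 and Fads2 share 0.

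Summed over the 10 genes, ATII-like cells held 13741 CPM (13591 to 13893), Hopx-positive ATII cells 7968 CPM and ATI-like cells 1401 CPM (1297 to 1512). Alveolar macrophages held 283 CPM (273 to 294) and interstitial macrophages 257 CPM (246 to 269). Every other immune, endothelial or stromal gate lay between 117 and 332 CPM, below all 5 epithelial gates, of which the airway gate was lowest at 963 CPM. Scd1, the stearoyl-CoA desaturase that puts the first double bond into saturated chains, made up 75.3% of the summed UMIs in ATII-like cells, 43.9% in ATI-like cells and 1.68% in alveolar macrophages. It made up 58.6% in the airway gate, where 11 of 31 cells had a Scd1 UMI. The 10% of airway cells with the most held 90.9% of these Scd1 UMIs. In alveolar macrophages Acly made up 35.6%, Elovl1 22.1% and Insig1 18.3%, so the composition of the sum changed along with its size.

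**Figure D1:**
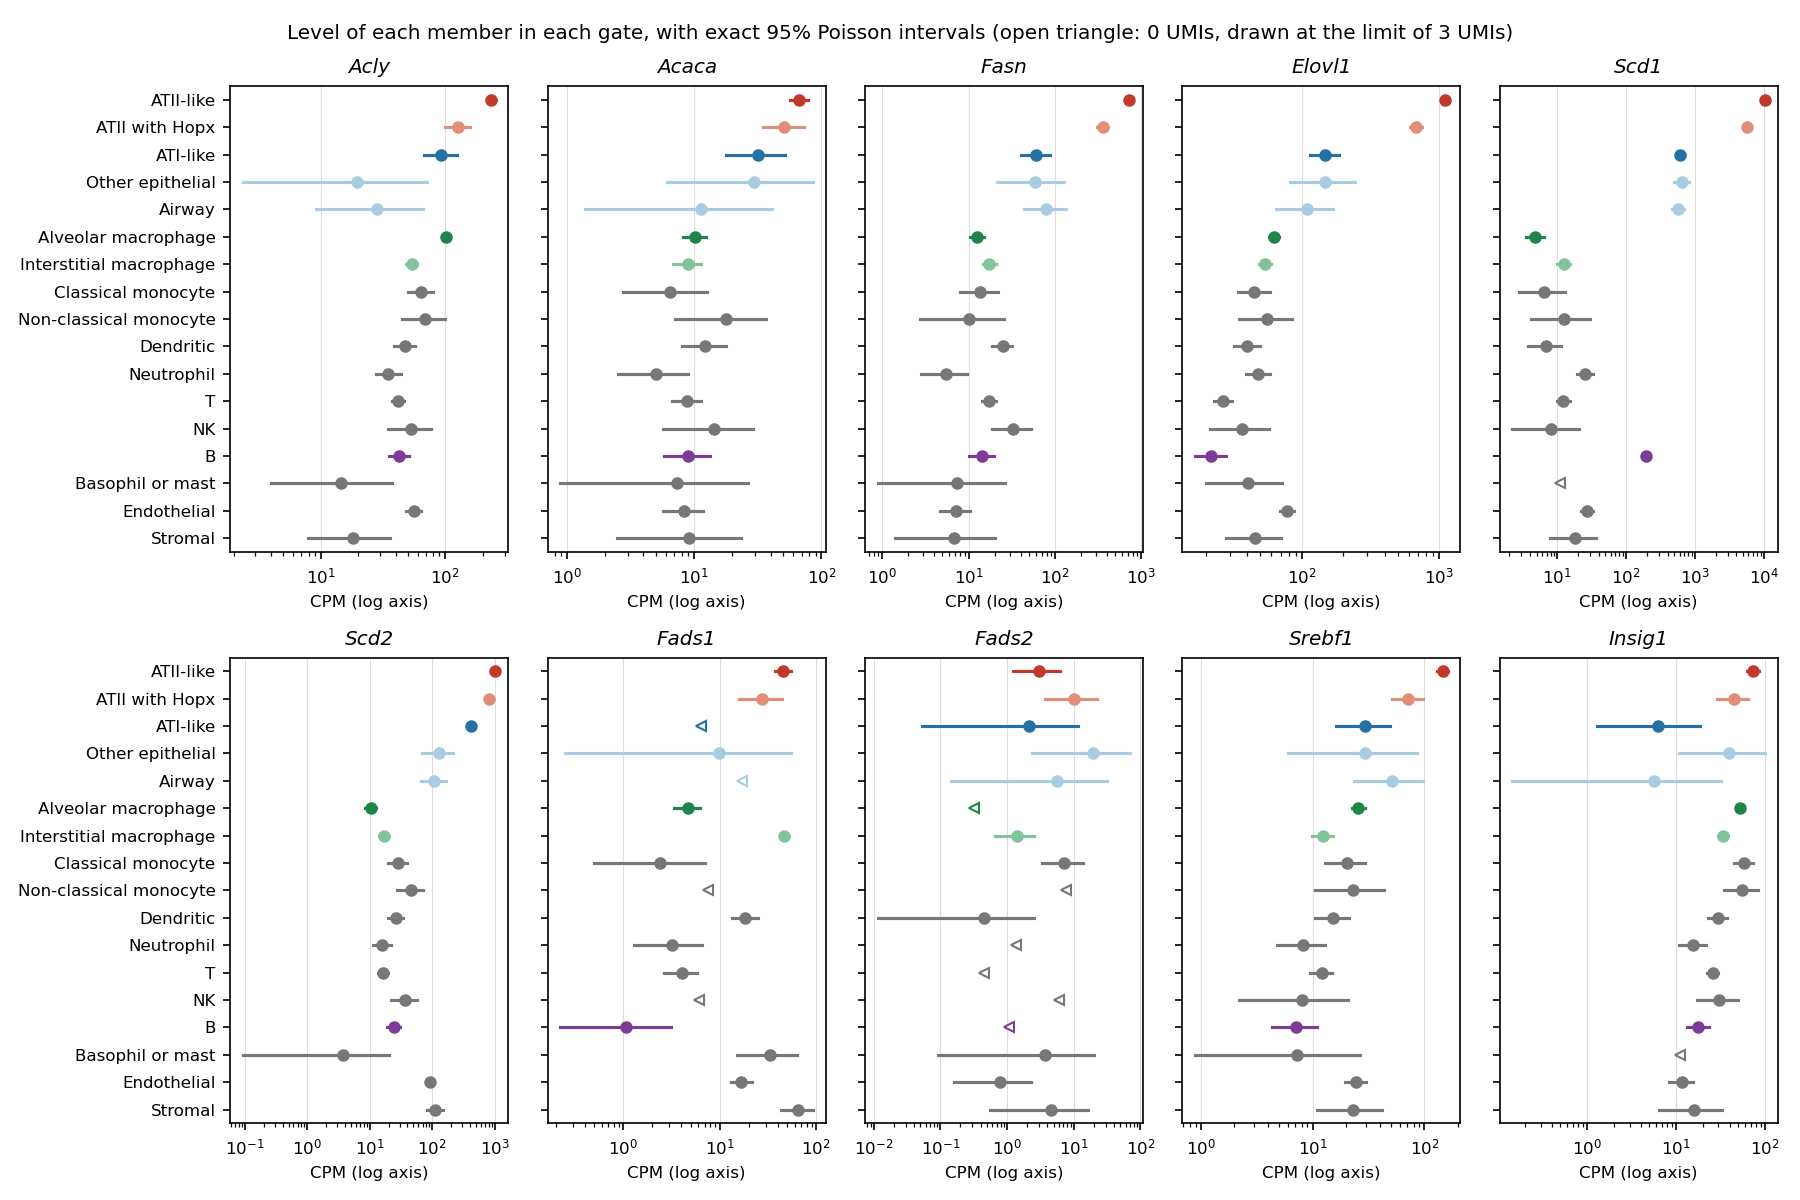
Level of each of the 10 genes in 17 gates, as CPM on a log axis with exact 95% Poisson intervals; open triangles are gates with 0 UMIs, drawn at the limit of 3 UMIs. ATII-like cells (red) are highest for Acly, Acaca, Fasn, Elovl1, Scd1, Scd2, Srebf1 and Insig1, stromal cells for Fads1, and B cells (purple) stand above the other non-epithelial gates for Scd1 at 194 CPM.

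Between ATII-like and ATI-like cells, every gene of the set with enough UMIs was higher in ATII-like cells, from 2.10-fold for Acaca to 16.8-fold for Scd1, with Fads1 known only by a lower bound. A gene was called here when its CPM differed at least 2-fold and the counting interval of the ratio excluded equality, among genes with at least 20 UMIs in the 2 gates together. A gene at 0 UMIs in either gate met the 2-fold rule, even where its bound from 3 UMIs was under 2-fold. Of the 10 genes, 9 had enough UMIs and 9 of 9 were called higher in ATII-like cells, against 6.95% of 8412 genes called higher and 17.1% called in either direction. Acaca, Fads1, Srebf1 and Insig1, with 15, 0, 14 and 3 UMIs in ATI-like cells, passed the filter only through ATII-like cells. The genes and gates were chosen with earlier results of these data known, so the count is a description and no independent support. The median log2 ratio of the 9 genes was 2.84 with Fads1 at its bound, against -0.17 over all genes, and subtracting that median makes each ratio larger by 0.17. Acaca fell under 2-fold in 3 of 16 alternatives, and Scd2 in 1 (0.98, 0.82 to 1.15, with an ATII threshold of 2%).

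For the supply of building blocks, Acly stood at 234 CPM (215 to 255) in ATII-like and 92.7 CPM (67.4 to 124) in ATI-like cells, a log2 ratio of 1.34 (0.89 to 1.81). Acaca stood at 66.4 CPM (56.3 to 77.7) and 31.6 CPM (17.7 to 52.1), the latter from 15 UMIs, a log2 ratio of 1.07 (0.30 to 1.94). The interval of the Acaca ratio reached below 0 with an ATII threshold of 0.5% (0.72, -0.09 to 1.66) and with cells thinned to 1000 UMIs (0.72, -0.47 to 2.14). The ratios of these 2 early steps were below those of Fasn and Elovl1, with no overlap of the intervals. Fasn stood at 713 CPM (679 to 748) in ATII-like and 61.1 CPM (40.9 to 87.8) in ATI-like cells, 11.7-fold apart (log2 ratio 3.54, 3.02 to 4.13). Elovl1, an elongase of saturated and monounsaturated chains, stood at 1107 CPM (1065 to 1151) and 148 CPM (115 to 186), 7.51-fold apart (log2 ratio 2.91, 2.57 to 3.27).

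Among the desaturases, Scd1 and Scd2 gave unlike ratios. Scd1 stood at 10353 CPM (10222 to 10485) in ATII-like and 615 CPM (547 to 690) in ATI-like cells, 16.8-fold apart (log2 ratio 4.07, 3.91 to 4.24). Its neighbor Scd2, an enzyme of the same reaction, stood at 1000.1 CPM (960 to 1042) and 415 CPM (359 to 477), only 2.41-fold apart (log2 ratio 1.27, 1.06 to 1.49). The intervals of the 2 ratios did not overlap, and Scd2 took 29.6% of the summed UMIs in ATI-like cells against 7.28% in ATII-like cells. Fads1, the delta-5 desaturase of polyunsaturated chains, had 105 UMIs in ATII-like cells (45.3 CPM, 37.0 to 54.8) and 0 in ATI-like cells. A limit of 3 UMIs stands at 6.32 CPM there and puts Fads1 7.16-fold higher in ATII-like cells. The exact lower limit of its log2 ratio was 2.52. Fads2, the delta-6 desaturase, had 7 UMIs in ATII-like and 1 in ATI-like cells, too few for the filter, with a log2 ratio of 0.52 (-2.44 to 6.01).

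The regulators followed the enzymes in this comparison. Srebf1 stood at 146 CPM (131 to 162) in ATII-like and 29.5 CPM (16.1 to 49.5) in ATI-like cells, a log2 ratio of 2.30 (1.54 to 3.19). Insig1 stood at 74.1 CPM (63.5 to 86.1) and 6.32 CPM (1.30 to 18.5), the latter from 3 UMIs, a log2 ratio of 3.55 (1.98 to 5.84). Without Scd1 the sum of the other 9 genes was still 4.31-fold higher in ATII-like cells (log2 ratio 2.11, 1.96 to 2.26), against 9.81-fold with it (3.29, 3.18 to 3.41). Surfactant and other ATII and ATI state transcripts take a large part of the ATII-like total, and with them left out of the totals the log2 ratio of the sum was 3.51. The cut between the gates mattered more: 140 of 832 epithelial cells had between 0.5% and 2% of their UMIs in ATII state genes, and with the threshold at 2% in place of 1% the log2 ratio of the sum was 2.34 and that of Scd1 was 2.63.

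Hopx-positive ATII cells, which carry the ATI gene Hopx beside an ATII profile, lay between the 2 states for 9 of the 10 genes. Scd1 there was 5783 CPM, a log2 difference of 0.84 (0.79 to 0.89) from ATII-like cells and of 3.23 (3.06 to 3.41) from ATI-like cells. Fasn there was 355 CPM, with log2 ratios of 1.00 (0.79 to 1.22) and 2.54 (1.97 to 3.15). For Acaca and Fads1 the interval of the ratio to ATII-like cells included 0, and so did that of Acly (0.45, -0.11 to 1.02) and Acaca to ATI-like cells. Fads2, with 6 UMIs, was the exception at 10.3 CPM. Its intervals included 0 for ATII-like over Hopx-positive cells (-1.76, -3.56 to 0.08) and for Hopx-positive over ATI-like cells (2.28, -0.76 to 7.81).

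**Figure D2:**
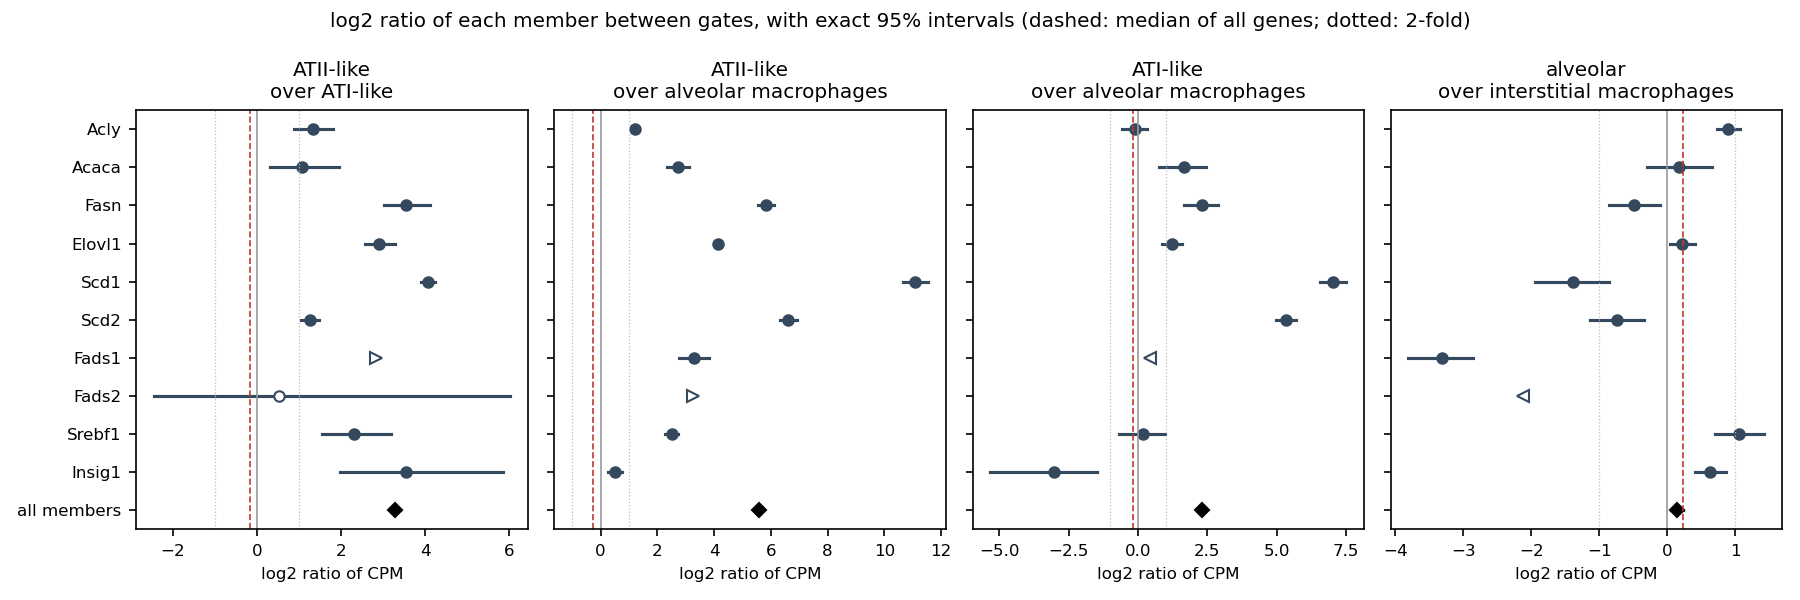
Log2 ratio of CPM for each of the 10 genes and their sum in 4 comparisons of gates, with exact 95% intervals; open triangles are bounds from 3 UMIs where a gate had 0, open circles are genes under 20 UMIs, the dashed line is the median of all genes and dotted lines mark 2-fold. All 9 genes with enough UMIs lie right of the upper 2-fold line for ATII-like over ATI-like cells, and Insig1 lies left of the lower one for ATI-like cells over alveolar macrophages; the sum of alveolar over interstitial macrophages is 0.14, or -0.09 relative to the median of all genes.

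ATII-like cells were next compared with alveolar macrophages, the other cells of the lung that handle surfactant lipid. Of these macrophages 95.4% had a TdTomato UMI. The authors left tdTomato-positive cells that were not epithelial out of their analyses of this dataset, whereas they were kept here. Of 9 genes with enough UMIs, 8 were called higher in ATII-like cells, against 18.1% of 11133 genes called higher and 43.8% called in either direction. Their median log2 ratio was 3.28, against -0.26 over all genes. Scd1 was at 4.77 CPM (3.48 to 6.38) in alveolar macrophages, from 45 UMIs, and its log2 ratio was 11.08 (10.66 to 11.54). Scd2 was at 10.3 CPM (log2 ratio 6.60), Fasn at 12.5 CPM (5.83, 5.56 to 6.11), Elovl1 at 62.6 CPM (4.14) and Acaca at 10.1 CPM (2.72). Acly, at 101 CPM (94.6 to 107), came closer, with a log2 ratio of 1.21 (1.06 to 1.37), and Srebf1 stood at 25.7 CPM (2.50, 2.26 to 2.74). Insig1 was the gene not called: at 51.9 CPM (47.4 to 56.7) in alveolar macrophages its log2 ratio was 0.51 (0.26 to 0.77), or 0.77 relative to the median of all genes. With cells thinned to 1000 UMIs the Insig1 ratio was 0.09 (-0.64 to 0.76).

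Fads1 was at 4.66 CPM (3.39 to 6.26) in alveolar macrophages, a log2 ratio of 3.28 (2.76 to 3.82). Within alveolar macrophages it differed with the reporter, at 4.10 CPM in 1655 cells with a TdTomato UMI and 17.0 CPM, from 7 UMIs, in 80 cells without one (log2 ratio -2.06, -3.24 to -0.65). The intervals of the other genes between these cells included 0, where a ratio could be formed, and median depth was 5461 and 5614.5 UMIs. Scd1 had 45 UMIs and 0 there. Against the 80 cells alone, the log2 ratio of Fads1 in ATII-like cells was 1.41 (0.32 to 2.76), in place of 3.28.

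ATI-like cells over alveolar macrophages gave a split picture. Of 9 genes with enough UMIs, 5 were called higher in ATI-like cells and 1 lower, against 14.2% of 10467 genes called higher, 18.5% lower and 32.6% in either direction. Acaca, Fads1, Srebf1 and Insig1 passed the filter here only through alveolar macrophages. Scd1 (log2 ratio 7.01, 6.56 to 7.50), Scd2 (5.34, 4.98 to 5.70), Fasn (2.29, 1.65 to 2.89), Acaca (1.65, 0.76 to 2.44) and Elovl1 (1.24, 0.86 to 1.60) were higher. Elovl1 was no longer 2-fold apart with an ATII threshold of 0.5% (0.58, 0.01 to 1.10). Insig1 was lower, with 3 UMIs in ATI-like cells (log2 ratio -3.04, -5.32 to -1.48). Acly (-0.12, -0.59 to 0.31) and Srebf1 (0.20, -0.70 to 0.97) had intervals that included 0 and extended to less than 2-fold on either side. Fads1, with 0 UMIs in ATI-like cells and 44 in alveolar macrophages, was not detectably different at this depth. The median of the 9 genes was 1.24, against -0.17 over all genes.

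Alveolar and interstitial macrophages held nearly the same sum. Of 9 genes with enough UMIs, 1 was called higher in alveolar macrophages and 2 lower, against 15.4% of 11133 genes called higher, 11.6% lower and 26.9% in either direction, so the share called was near that of all genes. Fads1 differed most, at 46.4 CPM (41.6 to 51.7) in interstitial and 4.66 CPM in alveolar macrophages (log2 ratio -3.32, -3.80 to -2.86). With the 80 alveolar macrophages without a TdTomato UMI alone, it was -1.45 (-2.77 to -0.39). Scd1 was at 12.5 CPM and 4.77 CPM (-1.39, -1.94 to -0.86), and at -0.73 (-1.22 to -0.25) with lineages taken from clusters. Both Scd1 counts were no higher, within counting error, than the level given by the Sftpc of each gate in the comparison below. Srebf1 was at 12.3 CPM and 25.7 CPM (1.06, 0.70 to 1.43), and fell under 2-fold in 3 of 16 alternatives, at 0.83 (0.47 to 1.19) relative to the median of all genes, 0.98 without upper cut-offs and 0.83 (-0.35 to 1.82) with the alveolar macrophages without TdTomato. Acly was at 54.1 CPM and 101 CPM (0.90, 0.73 to 1.07). The log2 ratio of the sum was 0.14 (0.05 to 0.23), but the median of all genes was 0.23, and relative to it the sum turned to -0.09. The median of the 9 genes was 0.18. Relative to the median of all genes, Acaca (-0.05) and Elovl1 (-0.01) turned negative too.

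Fads1, Fads2 and Insig1 ordered the gates in other ways than Scd1 or Fasn. Fads1 was highest in stromal cells at 64.2 CPM (42.6 to 92.7), then in interstitial macrophages and in ATII-like cells at 45.3 CPM, and these neighbors had overlapping intervals. Basophil or mast cells followed at 32.9 CPM (15.1 to 62.5), Hopx-positive ATII cells at 27.3 CPM, dendritic cells at 18.5 CPM and endothelial cells at 16.8 CPM, again with overlapping neighbors. T cells held 4.02 CPM and B cells 1.07 CPM, and non-classical monocyte, airway, ATI-like and NK gates had 0 UMIs. Scd2 had a second, smaller rise in stromal (112 CPM, 83.1 to 148) and endothelial cells (93.0 CPM, 83.6 to 103), above all immune gates, of which non-classical monocytes were highest at 45.6 CPM. For Insig1, ATII-like cells (74.1 CPM), classical monocytes (58.0 CPM, 45.4 to 73.1), non-classical monocytes (55.7 CPM) and alveolar macrophages (51.9 CPM) stood in that order with overlapping intervals between neighbors. Fads2 was at or under 19.6 CPM in every gate, a level reached from 2 UMIs in the other epithelial gate, and had 0 UMIs in alveolar macrophages, T, B and NK cells, neutrophils and non-classical monocytes.

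All 832 epithelial cells outside the airway gate were also divided by their share of UMIs in the 9 ATII state genes, none of which belongs to the set, into 5 bins of 110, 91, 221, 270 and 140 cells. Levels here are UMIs per 1000000 UMIs outside the ATII and ATI state genes and Sftpc. Scd1 was at 317 (254 to 391) in cells under 0.3%, 949 at 0.3 to 1%, 7591 at 1 to 3%, 11990 at 3 to 5% and 13894 (13608 to 14184) at 5% or more. Fasn followed at 32.5, 91.4, 568, 818 and 879, the last 2 with overlapping intervals. Elovl1 rose in each bin, at 101, 200, 632, 1263 and 1773, with no interval overlapping the next. Scd2 behaved otherwise: it was at 382 (313 to 462) and 366 (299 to 443) in the lowest bins, then 1056, 1215 and 1121 (1041 to 1206). Srebf1 (25.2, 35.1, 131, 168 and 161) and Insig1 (10.8, 14.1, 69.7, 89.5 and 78.8) were also level within their intervals over the highest 2 bins. Acly went from 68.5 to 315, Acaca from 28.8 to 81.9 and Fads1 from 0 UMIs to 69.5, and Fads2 stayed between 3.51 and 7.21 with overlapping intervals. Median depth went from 2202 to 5602.5 UMIs per cell along the same bins.

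**Figure D3:**
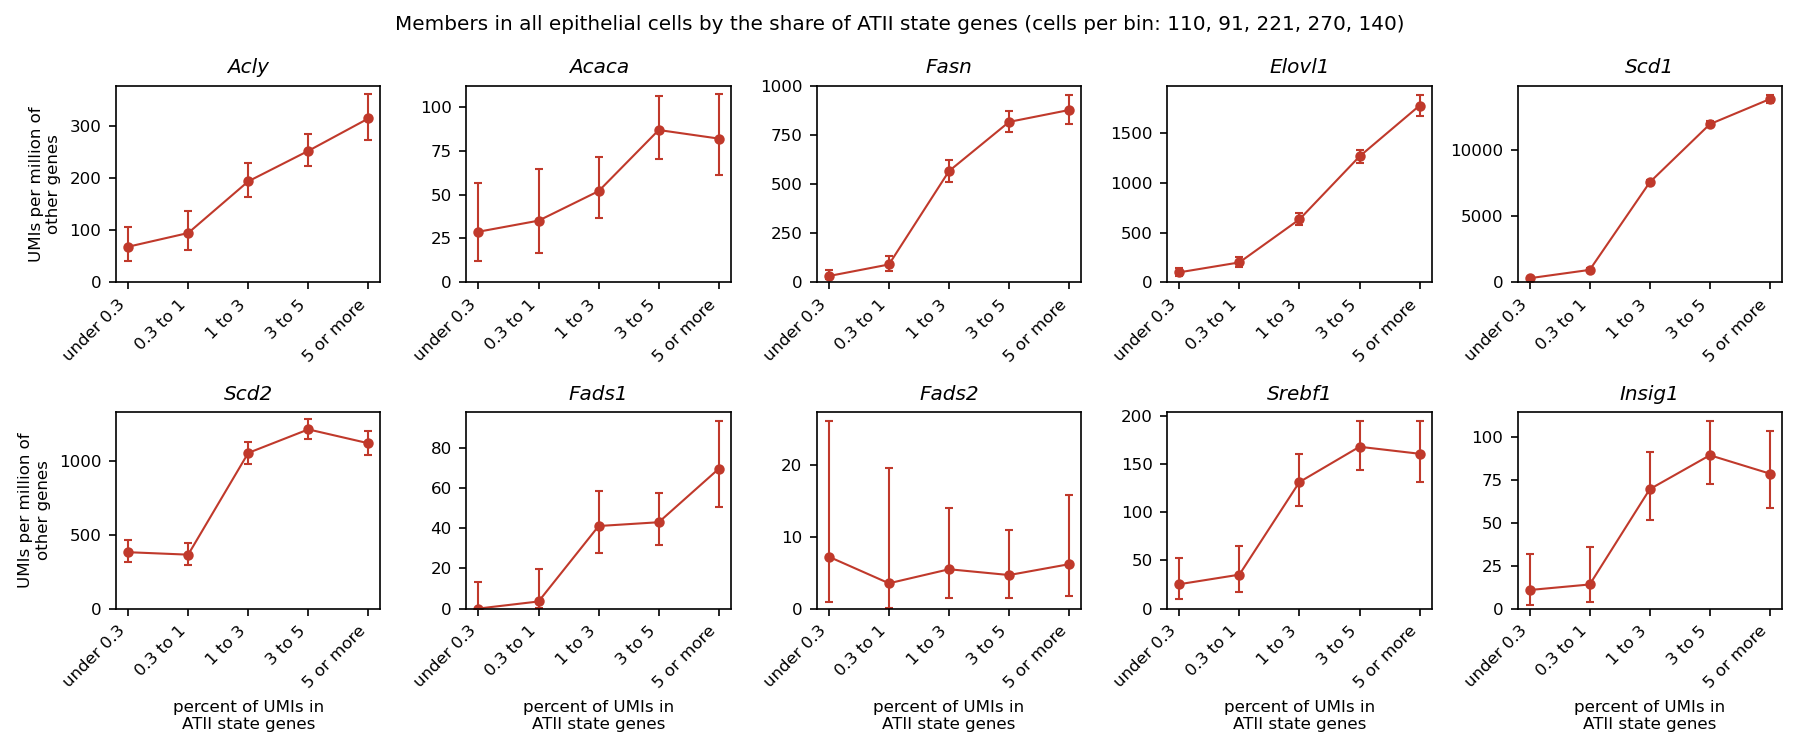
Each of the 10 genes in 832 epithelial cells grouped by the percent of their UMIs in 9 ATII state genes, as UMIs per 1000000 UMIs of other genes with exact 95% intervals. Scd1 goes from 317 to 13894 and Elovl1 rises in every bin, while Scd2 is level over the lowest 2 bins at 382 and 366, and Fads2 shows no trend beyond its intervals.

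From cell to cell, Scd1 in ATII-like cells ranged from 0 to 48484 CPM, with a median of 8121 CPM. After thinning each cell to 1000 UMIs, 93.4% of 488 ATII-like cells (90.9 to 95.5) and 28.3% of 166 ATI-like cells (21.6 to 35.8) had a Scd1 UMI. Of 3279 T cells, 0.732% had one. Without thinning, 97.8%, 46.2% and 1.26% of cells had one, in gates with a median of 4480, 2342 and 1672 UMIs. In ATI-like cells the 10% of cells with the most held 66.4% of the Scd1 UMIs, against 30.8% in ATII-like cells. Thinned shares of ATII-like and ATI-like cells were 58.8% and 28.3% for Scd2, 60.5% and 12.7% for Elovl1, 45.7% and 4.22% for Fasn and 20.3% and 7.23% for Acly. Over the 488 thinned ATII-like cells, Spearman's rho with Scd1 was 0.37 for Scd2, 0.30 for Fasn, 0.18 for Acly and 0.17 for Elovl1, and 0.14 or less for the other 5, which averaged 0.160 UMIs per cell or less. These are descriptions over cells of 1 matrix at 1 depth, and weak values in counts this sparse are no finding.

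Among the cells kept, ATII-like cells held 80.4% of all Scd1 UMIs but 4.36% of all UMIs. Each gate was therefore set against the level its Sftpc would carry if both came from ATII-like cells in their ratio there. In alveolar macrophages 45 Scd1 UMIs were counted and 38.5 stand at that ratio, and in interstitial macrophages 90 and 117. T cells (82 and 105), neutrophils (56 and 59.4), NK cells, monocytes and basophil or mast cells were likewise at or below it within counting error. Endothelial (104 and 44.5), dendritic (15 and 7.70), stromal (8 and 1.92), airway (99 and 44.8) and B cells were above it. The airway count came mostly from a few of 31 cells. Whether the Scd1 UMIs of the gates at or below that ratio were RNA from ATII-like cells was not tested. Scd1 ratios that involve either macrophage gate rest on counts no higher than that ratio gives, within counting error. ATI-like cells held 292 Scd1 UMIs, below the 605 at that ratio, and their Fasn (29 and 41.6), Elovl1 (70 and 64.7), Srebf1 (14 and 8.51) and Insig1 (3 and 4.33) had intervals that included it. Scd2 (197 and 58.4), Acly (44 and 13.7) and Acaca (15 and 3.88) were above it in ATI-like cells. Among the immune, endothelial and stromal gates Sftpc was highest in neutrophils at 309 CPM, against 14575 CPM in ATI-like cells. At the ATII-like ratio the neutrophil level gives 27.0 CPM of Scd1, against 615 CPM counted in ATI-like cells. What part of the ATI-like counts came from free RNA was not tested. In both macrophage gates Acly, Acaca, Fasn, Elovl1, Scd2, Fads1, Srebf1 and Insig1 were above it, where that ratio gives at most 9.20% of each count.

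**Figure D4:**
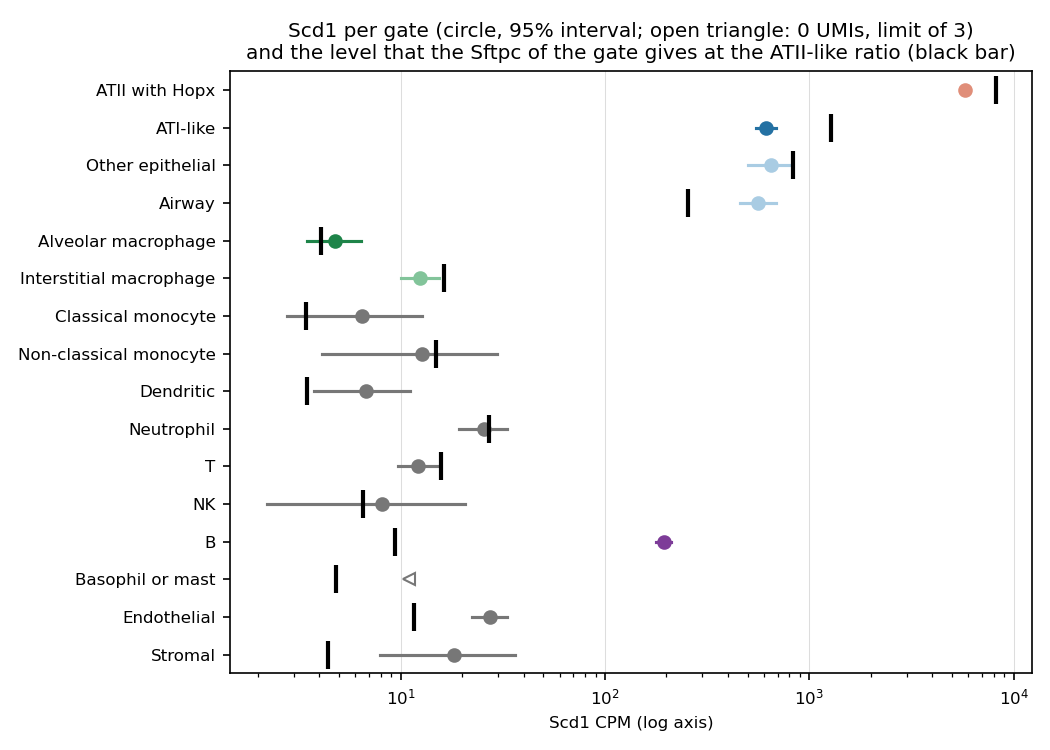
Scd1 in each gate other than ATII-like (circles, CPM on a log axis, exact 95% interval; the open triangle is a gate with 0 UMIs, drawn at the limit of 3) beside the level that the Sftpc of the gate gives at the ATII-like ratio of Scd1 to Sftpc (black bars). Interstitial macrophages lie below their bar, the interval of alveolar macrophages covers theirs, and B cells stand at 194 CPM against 9.42 CPM.

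B cells were the non-epithelial gate with the most Scd1. Scd1 was at 194 CPM (178 to 211) from 542 UMIs, where 26.3 UMIs stand at the Sftpc ratio, and took 58.4% of the summed UMIs of the set there. Of 1665 B cells, 1232 had 0 Scd1 UMIs, 345 had 1, 72 had 2, 11 had 3 and 5 had 4. Thinned to 1000 UMIs, 18.2% of B cells (16.3 to 20.3) had a Scd1 UMI against 0.732% of T cells, and 26.0% against 1.26% without thinning, in gates with a median of 1394 and 1672 UMIs. The log2 ratio of B over T cells was 3.99 (3.65 to 4.34). The other genes did not share it: Fasn (-0.27, -0.83 to 0.26), Acly (0.02, -0.30 to 0.34), Acaca (0.02) and Elovl1 (-0.30) had intervals that included 0, Scd2 was higher by 0.57 (0.11 to 1.02), and Srebf1 (-0.75), Insig1 (-0.53) and Fads1 (-1.91) were lower. Scd1 was much alike in B cells with and without a UMI of Ighd, a marker of naive cells, at 199 CPM (175 to 226) and 190 CPM (169 to 212). In 51 B cells with a UMI of Jchain, the chain that joins secreted antibodies, it was at 92.4 CPM (55.6 to 144) against 202 CPM (185 to 220) in the rest. B cells with a Sftpc UMI held 256 CPM (194 to 332) and those without held 188 CPM (172 to 206). These splits were chosen after the Scd1 level in B cells was known.

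Other genes of lipid synthesis were counted by list in the same comparison, where 6.95% of all genes were called higher and 10.1% lower. Of 22 other genes of fatty acid synthesis, elongation and desaturation with enough UMIs, 7 were called higher in ATII-like cells and 1 lower, with a median log2 ratio of 0.36. Acss2, which makes acetyl-CoA from acetate, was at 41.0 and 6.32 CPM (log2 ratio 2.70, 1.10 to 5.0), and malic enzyme Me1, a source of NADPH, at 163 and 48.5 CPM (1.75, 1.15 to 2.43). Acacb and Acsl1 had 24 and 21 UMIs in ATII-like cells and 0 in ATI-like cells. The limit of 3 UMIs gives folds of 1.64 and 1.43, with exact lower limits of log2 0.30 and 0.09. Both are among the 7 called, although these bounds lie under 2-fold. Fads3, a desaturase of the Fads cluster, went the other way, at 53.9 and 166 CPM (-1.63, -2.05 to -1.20). Of 9 regulators around SREBP and LXR, 2 were higher, Mlx (1.36, 0.26 to 2.72) and Srebf2 (1.05, 0.26 to 1.96), with a median of 0.12.

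Of 22 genes of cholesterol synthesis and uptake, 9 were called higher and 2 lower, with a median of 0.83 where Nsdhl stands at its bound. Pmvk, a kinase of the mevalonate pathway, was at 777 and 150 CPM (2.38, 2.03 to 2.74) and Sqle had 45 and 1 UMIs (3.20, 0.65 to 8.54). Nsdhl had 26 UMIs and 0, 1.77-fold higher at the limit of 3 UMIs, with an exact lower limit of log2 0.42. It is among the 9 called, although this bound lies under 2-fold. Mvk (-1.23, -2.28 to -0.10) and Ebp (-1.19, -1.86 to -0.49) were lower. Of 6 genes of NADPH supply 1 was called, Me1, and of 10 genes of glycerophospholipid synthesis 1, Lpcat1, which makes the saturated phosphatidylcholine of surfactant, at 895 and 96.9 CPM (3.21, 2.79 to 3.66). The NADPH and glycerophospholipid medians were 0.45 and 0.44.

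**Figure D5:**
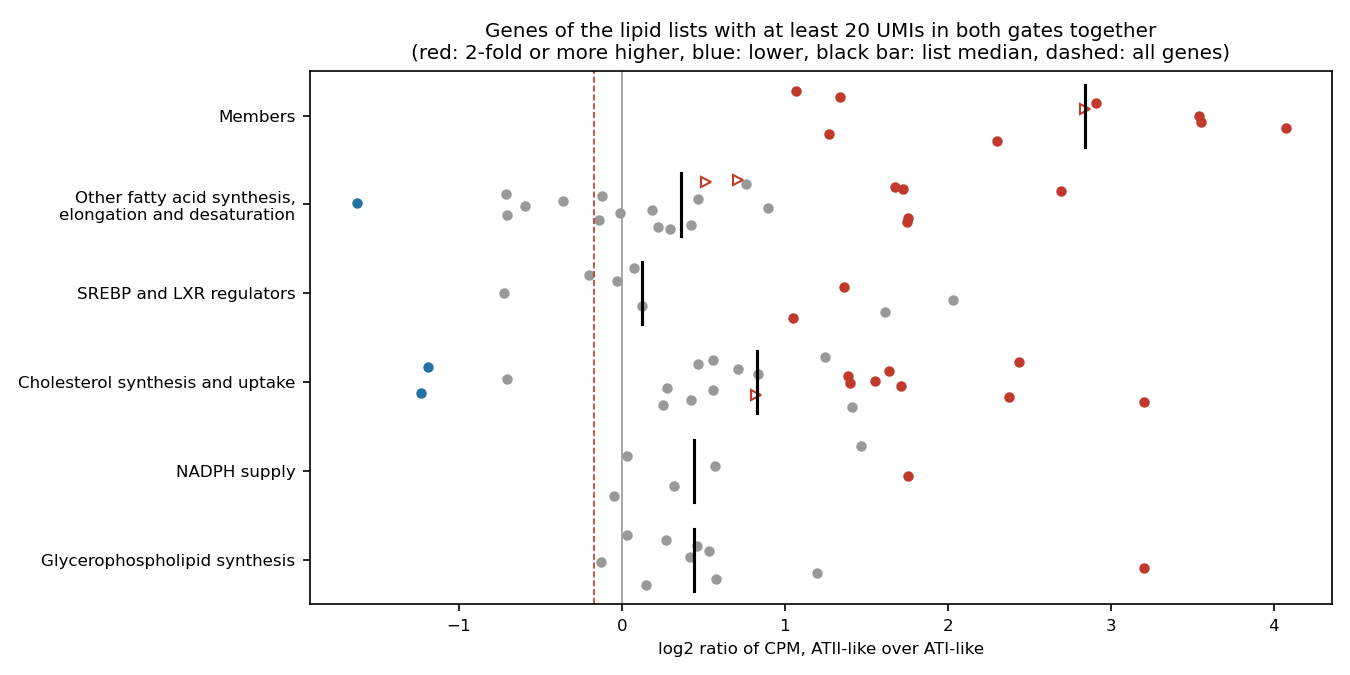
Log2 ratio of CPM, ATII-like over ATI-like, for each gene with at least 20 UMIs in both gates together in 6 lists. Red points are at least 2-fold higher and blue points at least 2-fold lower, with an interval off equality. Triangles are bounds from 3 UMIs for called genes with 0 UMIs in ATI-like cells, some of them under 2-fold. Black bars are list medians and the dashed line is the median of all genes. The 10-gene set has its median at 2.84, and the other lists have theirs between 0.12 and 0.83.

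Against alveolar macrophages the same lists held calls in both directions, where 18.1% of all genes were called higher and 25.7% lower, and the shares of the cholesterol and regulator lists were near or under these. In ATII-like cells 11 of 24 other fatty acid genes were called higher and 2 lower (median 0.87), led by Me1, at 163 CPM against 3 UMIs (log2 ratio 9.01, 7.45 to 11.29), Acss2 (5.27), Thrsp (5.19) and Fads3 (4.82). Elovl6, the elongase of palmitate, had 0 UMIs in ATII-like cells and 65 in alveolar macrophages (6.89 CPM). It was 5.32-fold lower at the limit of 3 UMIs, with an exact limit of log2 -2.07. Acsl1 was lower too (-2.28, -2.98 to -1.65). Cholesterol genes gave 4 higher, Pmvk (3.71), Tm7sf2 (2.27), Lss (1.85) and Acat2 (1.54), and 3 lower, Ebp (-1.67), Dhcr7 (-1.35) and Mvd (-1.27), with a median of -0.15. Regulators gave 2 higher, Rnf145 (2.14) and Insig2 (1.09), a relative of Insig1, and 2 lower, Nr1h3 (-1.16), which encodes LXR alpha, and Scap (-1.14), the escort of SREBP. Lpcat1 was at 5.61 CPM in alveolar macrophages (log2 ratio 7.32, 6.92 to 7.74), with Lpin2 (1.91), Agpat2 (1.68) and Agpat3 (1.45) also higher and the phosphatidate phosphatase Lpin1 lower (-2.71, -3.12 to -2.33). In NADPH supply Mthfd1 (1.53) and Aldh1l1 (1.32) joined Me1, and Idh1 was lower (-1.93, -2.22 to -1.65), with medians of -0.04 for regulators, 0.31 for NADPH supply and 0.25 for glycerophospholipid genes.

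In ATI-like cells over alveolar macrophages, where 14.2% of all genes were called higher and 18.5% lower, 1 of 22 cholesterol genes was called higher, 9 lower and the other 12 neither (median log2 ratio -0.69). The other lists gave 8 higher and 1 lower of 21 fatty acid genes (0.51), 2 and 3 of 9 regulators (-0.79), 2 and 1 of 6 NADPH genes (-0.40) and 3 and 1 of 10 glycerophospholipid genes (-0.01). In alveolar over interstitial macrophages, where 15.4% of all genes were called higher and 11.6% lower and their median was 0.23, 8 of 22 cholesterol genes were called higher and 1 lower (0.55). The other lists there gave 1 higher and 3 lower of 21 fatty acid genes (0.35), 2 and 0 of 9 regulators (0.28), 1 and 0 of 5 NADPH genes (0.41) and 4 and 1 of 11 glycerophospholipid genes (0.65).

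Over the 15 gates of at least 50 cells, the genes most like Scd1 in log2(CPM + 10), among 6333 genes, included Rap1gap (Pearson r = 0.985), Cpm (0.962), the surfactant protein gene Sftpa1 (0.961) and Egfl6 (0.956). For Fasn they were Stx19, Pla2g1b, Elf5, C2cd4b and Bex2, each at 0.970 or 0.971. The points are gates of 1 matrix that share libraries, and ATII-like and Hopx-positive ATII cells were high for all of these genes. None of these genes most like Scd1 reached its level in B cells, where Sftpa1 was highest at 20.4 CPM and Cpm next at 18.2 CPM.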

How the data were processed

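Sorted viable tumor cells of 4 mice (2 Restored, 2 Non-Restored) were profiled with Chromium 3′ v3 chemistry. The deposited values are raw UMI counts per gene and cell, which the authors made with Cell Ranger 3.0.2 on mm10 and pooled over the 4 mice in 1 matrix of 31055 features. No column names a mouse, and cell barcodes were not analysed here, so groups were not compared and no test was run.

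Cells with under 200 genes, or above the 98th percentile of genes (2713) or of mitochondrial share (13.4%), were removed. A lineage needed 3 of its 8 markers and a lead of 2 markers over any other lineage, and the 24.7% of kept cells that met no gate were left out. Epithelial cells with at least 1% of UMIs in 9 ATII state genes were ATII-like without a Hopx UMI and Hopx-positive ATII with one, and those below it with at least 3 of 10 ATI state genes were ATI-like. Cells with 3 ciliated or club markers were airway cells. Scrublet called 210 of 20299 cells as doublets (1.03%), which were kept and removed in an alternative.

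UMIs were summed per gate and scaled to CPM with exact Poisson intervals, ratios had exact conditional (Clopper-Pearson) intervals and shares exact binomial ones, all at 95%. A gate at 0 was set to 3 UMIs for bounds. Only the ratios, their intervals and the calls were tested on simulated data, drawn as Poisson counts from the ATII-like and ATI-like sums. Such draws hold no differences between cells or mice, and gating and thinning were not tested in this way. Software was Python 3.11.15 with scipy 1.17.1, scanpy 1.11.5 and matplotlib 3.10.9, and R 4.3.3 with Seurat 5.3.0 for clusters. The genes, lists and gates were chosen with earlier results of these data known. Named in the text are all 10 genes, from each other list up to 4 genes per direction by size of ratio for ATII-like over ATI-like cells or alveolar macrophages, and the 5 genes most like Scd1 and Fasn among genes at 50 CPM or more in a gate. Alternatives changed 1 of these choices at a time. Some items that these rules name, and 1 part of the genotype, are not reported here.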

Additional observations from a re-analysis of the deposited data

How the results depend on the processing

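No paired analysis was possible because the files used here give no mouse for any cell, and for that reason no mouse was left out in turn. All limits below are log2 ratios of the summed 10 genes. For ATII-like over ATI-like cells the ratio of 3.29 was 3.60 and 2.34 with an ATII threshold of 0.5% and 2%, 2.11 without Scd1, 3.13 with lineages from clusters, 3.46 scaled by the median of ratios, 3.08 without upper cut-offs, 3.45 thinned to 1000 UMIs and 3.51 with totals that leave out ATII and ATI genes. For ATI-like cells over alveolar macrophages, 2.31 became 1.96 and 3.29 with those thresholds, 1.496 without Scd1, 2.45 with clusters, 2.48 with the median of ratios, 2.50 without upper cut-offs and 2.17 thinned. For ATII-like cells over alveolar macrophages, 5.60 became 3.60 without Scd1, 5.53 against alveolar macrophages without TdTomato, 5.54 with equal weight per cell and 5.86 with the median of ratios or with totals that leave out ATII and ATI genes. The alveolar over interstitial ratio of 0.14 turned to -0.093 with the median of ratios, which subtracts the median of all genes. The cause of the other changes was not tested.

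Of 132 recomputed sums and counts of genes called, 111 stayed within the limits set for a change, 20 moved and 1 turned its direction. Of 575 ratios of single genes, 533 stayed within the interval of the main value, or kept its direction where a gate had 0 UMIs, and 42 moved. Ratios whose bound showed no difference were given no value. Fads1 and Insig1 in ATI-like cells rest on 0 and 3 UMIs, and Fads2 on 10 or fewer in any gate compared, which limits what can be detected. The ratio of Scd1 in B over T cells, added after its level was seen, ran from 3.70 to 4.63 over 16 alternatives.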
